A study of Mus musculus with 10 samples.

Results

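Notch receptors, their ligands and their Hey target genes were examined in the infrarenal aorta of mice with an experimental abdominal aortic aneurysm. The set held the 10 genes Notch1, Notch2, Notch3, Notch4, Jag1, Jag2, Dll4, Hey1, Hey2 and Heyl, out of 35527 gene names on the array. A spot was counted when it was not a control and its gene name equalled one of these symbols. They were read by 12 of the 55681 probes, and all 10 genes passed the filter on dim probes, as did 22520 of all names.

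Male C57BL/6J mice, 10 weeks old, had the infrarenal aorta perfused at 100 mmHg for 5 min. In the PPE group the fluid held type I porcine pancreatic elastase at 1.5 U per mL, which breaks down elastic fibres and sets off an aneurysm. In the sham group it was saline, so both groups shared the surgery and the pressurized infusion, and no untreated aorta was part of the comparison. The segment below the left renal artery was taken at day 7, with 1 mouse on each of 5 sham and 5 PPE arrays. Each array held 500 ng of aortic RNA, labelled red, beside a universal mouse reference, labelled green. Every value below is the log2 of aorta over reference, and a difference is the PPE mean minus the sham mean on that scale. Each sample was a whole segment of the wall with all of its cell types.

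The arrays lay on 5 slides. Slide 1 carried sham 1, PPE 1 and PPE 2, and was scanned on another day than the rest. Slide 2 carried sham 2, sham 3, PPE 3 and PPE 4, while sham 4, sham 5 and PPE 5 each lay alone on a slide of their own. Between 37.6% (sham 5) and 65.8% (PPE 1) of spots were well above background in red, and PPE 5 had the smallest share of the PPE arrays. Precision is limited by this number of arrays.

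Notch receptors are single-pass proteins that are activated by a ligand on a neighbouring cell. Ligand binding exposes the receptor to the protease ADAM10 and then to gamma-secretase, which frees the intracellular part to enter the nucleus. There it joins the DNA-binding protein RBPJ and a Mastermind co-activator and switches on genes such as those of the Hey and Hes repressors. In arteries, Notch3 is the receptor of smooth muscle cells and pericytes, the mural cells, and its loss or mutation weakens small arteries. Jag1 on endothelium and muscle signals to it, and Heyl and Hey2 are among its targets. Notch4 and Dll4 are set here as the endothelial genes. In endothelium Dll4 holds back sprouting and upholds arterial identity. Hey1 is a target in endothelial cells.

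RBPJ binds the letters TGGGAA, most often within CGTGGGAA or GTGGGAA. These were searched on both strands in windows from 250 bases before to 50 bases after the annotated start of transcription (RefSeq, GRCm38.p6). GTGGGAA lies within CGTGGGAA, and TGGGAA within both. The table of 32851 windows held 8 of the 10 genes, all but Hey1 and Heyl, so that Hey2 was the only Hey gene searched. Hey2 was the only one of the 8 with TGGGAA, against 25.6% of all windows, and its matches were both full CGTGGGAA sites, a form held by 0.734% of all windows. GTGGGAA was found in 6.38% of windows. The palindrome CACGTG, an E-box of the kind bound by Hey proteins, was in 7.15% of windows and in none of the 8 genes. The first 260 bases of the Hey2 window are shown because this gene had the largest difference between the groups. Those of Hes5 and Lfng are shown beside it, as pathway genes with the same letters and other values. Capitals mark GTGGGAA or its reverse complement TTCCCAC, and each sequence runs 5′ to 3′ on the strand of the gene.

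Hey2, GRCm38.p6 chr10:30842774-30843033, minus strand: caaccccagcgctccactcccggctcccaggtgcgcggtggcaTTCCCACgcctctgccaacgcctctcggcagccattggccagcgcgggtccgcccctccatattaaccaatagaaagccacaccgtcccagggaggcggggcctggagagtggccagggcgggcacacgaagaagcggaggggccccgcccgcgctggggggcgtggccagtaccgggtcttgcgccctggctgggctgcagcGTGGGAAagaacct
Hes5, GRCm38.p6 chr4:154960673-154960932, plus strand: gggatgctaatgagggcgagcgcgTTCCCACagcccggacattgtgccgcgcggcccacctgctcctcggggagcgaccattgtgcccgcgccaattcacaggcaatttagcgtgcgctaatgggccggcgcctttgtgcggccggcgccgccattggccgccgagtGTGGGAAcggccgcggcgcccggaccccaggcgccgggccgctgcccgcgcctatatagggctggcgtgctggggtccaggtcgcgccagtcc
Lfng, GRCm38.p6 chr5:140607091-140607350, plus strand: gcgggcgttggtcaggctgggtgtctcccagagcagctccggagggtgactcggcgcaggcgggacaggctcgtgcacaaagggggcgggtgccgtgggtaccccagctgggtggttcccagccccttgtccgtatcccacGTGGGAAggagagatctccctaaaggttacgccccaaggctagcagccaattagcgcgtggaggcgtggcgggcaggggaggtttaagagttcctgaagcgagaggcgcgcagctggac

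With the start base counted as 0, the upstream GTGGGAA match of Hey2 began at -207 on the opposite strand and the other at -4 on the strand of the gene, so that the latter spans the start. The matches of Hes5 began at -226 and -83 and that of Lfng at -109. Lfng also held CACGTG, at -112, overlapping its CGTGGGAA. A match of letters is a description and shows no binding.

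None of the 10 genes passed the threshold, a limma adjusted p under 0.01 over all 22520 names, at which 23.8% of all names were called (13.9% higher and 9.96% lower in PPE). Where arrays were centred on their medians rather than by loess, the calls were 408 higher and 8 lower names, with none of the 10 genes among them. Without adjustment, 2 of the 10 and 9825 of all names had a p under 0.05. The values of the 2 groups overlapped in all 10 genes, while they did not overlap in 25.5% of all names. The median difference over the 10 genes was 0.068, beside 0.021 over all names. Hey2 and Heyl had the lowest differences of the set, Notch4 and Dll4 had the highest, and the other 6 lay between -0.094 and 0.19.

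**Figure D1:**
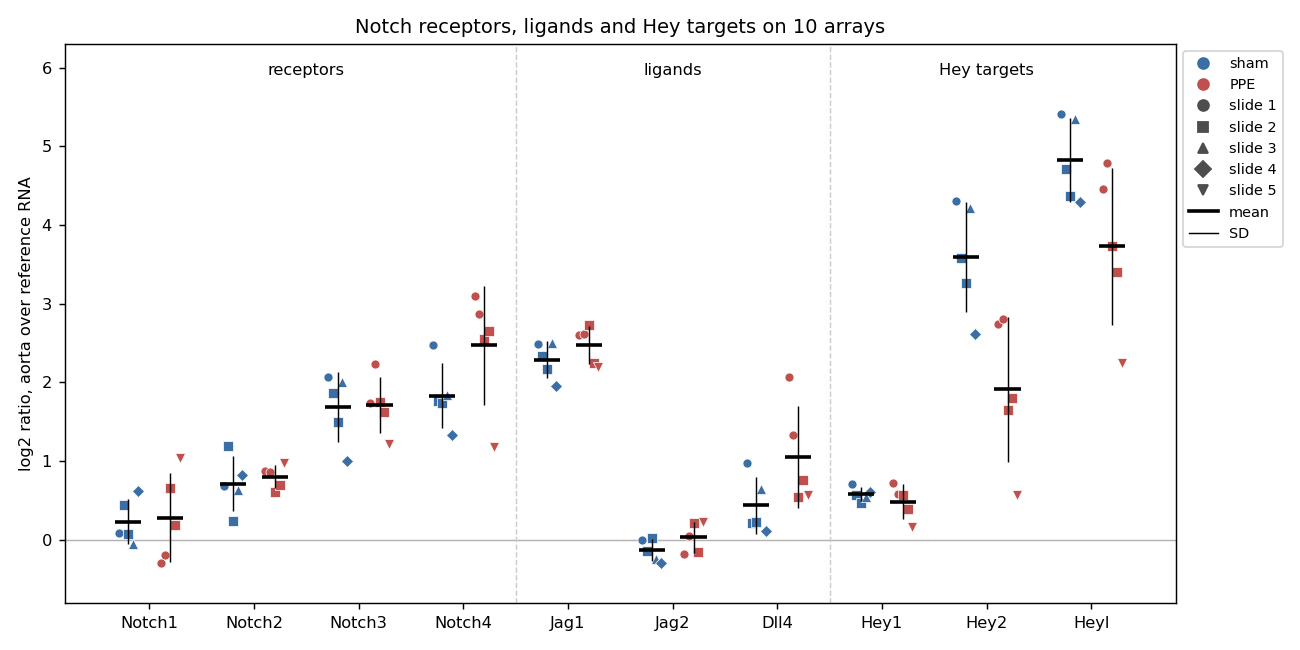
Log2 ratio of aorta over reference RNA (y axis) of the 10 genes (x axis) on the 5 sham (blue) and 5 PPE (red) arrays, with the slide as marker shape, the mean as a thick bar and the SD as a thin line. Hey2 and Heyl lie lower in PPE than in sham on each slide that holds both groups, PPE 5 is the lowest point of Notch3, Notch4, Jag1, Hey1, Hey2 and Heyl in its group, and the groups overlap in all 10 genes.

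Hey2, a transcriptional repressor that helps set arterial identity and the smooth muscle phenotype, was read at chr10:30552729-30552788 (mm9, minus strand). Its log2 ratios were 4.30, 3.59, 3.27, 4.22 and 2.62 on sham 1 to sham 5. They were 2.75, 2.81, 1.65, 1.80 and 0.57 on PPE 1 to PPE 5. Sham 5 lay below PPE 1 and PPE 2, and the other 4 sham arrays lay above all 5 PPE arrays. The means were 3.60 ± 0.70 in sham and 1.92 ± 0.92 in PPE (SD, n = 5 each). The difference of -1.68 (SE 0.44), or 3.21-fold less in PPE, had a limma adjusted p of 0.0112, just outside the threshold, with a range from 0.00013 to 0.292 over 25 alternatives. An exact two-sided permutation test of these values alone gave p = 0.0238. The 95% confidence interval ran from -2.65 to -0.71. With median centring the difference was -1.10. Without sham 5, PPE 1 or PPE 2 the difference was -1.93, -1.89 or -1.91 and passed the threshold (limma adjusted p = 0.0057, 0.0086 and 0.0071), and without any of the other 7 arrays it did not. Only 1.67% of all names had a lower difference. The green channel of this probe was above background on 5 of 10 arrays, so the ratio rests on a dim reference. After quantile normalization of the average brightness between arrays, red differed by -1.75 and green by -0.064. These values were rebuilt from the ratio and the average brightness, so they are no separate check of the ratio.

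Heyl, the Hey gene named for mural cells, was read at chr4:122926975-122927034 (mm9, plus strand). Its log2 ratios were 5.41, 4.71, 4.36, 5.35 and 4.29 on the sham arrays. They were 4.46, 4.79, 3.74, 3.40 and 2.25 on the PPE arrays. The order of the arrays within PPE resembled that of Hey2, with PPE 1 and PPE 2 high and PPE 5 lowest. The means were 4.83 ± 0.53 in sham and 3.73 ± 0.99 in PPE (SD, n = 5 each). The difference was -1.10 (SE 0.43), or 2.14-fold less, with an interval from -2.04 to -0.15 and a limma adjusted p of 0.0700. The exact permutation p was 0.0714. Without PPE 5 the difference was -0.73. It was -0.63 with a background offset of 0, -0.56 in the authors' own ratios and -0.33 with median centring. For this probe the green reference channel also differed, by -0.71, beside -1.80 in red, so the ratio gives a smaller difference than the red brightness.

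Hey1, read at chr3:8663432-8663491 (mm9, minus strand), had log2 ratios from 0.46 to 0.71 in sham and from 0.16 to 0.73 in PPE. Its sham arrays spread least of the 10 genes (SD 0.09), and PPE 5 was the lowest value. The difference was -0.094 (SE 0.12), with an interval from -0.36 to 0.17 and a limma adjusted p of 0.596. With median centring its sign turned, to 0.43. A decrease of 1 on the log2 scale thus lay outside the interval for Hey1, whereas for Hey2 and Heyl it lay inside.

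Notch4, the receptor of endothelial cells, was read at chr17:34725120-34725179 (mm9, plus strand). Its log2 ratios were 2.48, 1.76, 1.74, 1.84 and 1.34 on the sham arrays and 3.09, 2.87, 2.55, 2.66 and 1.18 on the PPE arrays. Of the PPE arrays, 4 lay above all 5 sham arrays and PPE 5 lay below them. The difference was 0.64 (SE 0.33), or 1.55-fold more, with an interval from -0.091 to 1.36 and a limma adjusted p of 0.167. Without PPE 5 it was 0.96 and the limma adjusted p was 0.00427, and with both sham 5 and PPE 5 left out it was 0.83 with 0.00676. The second of these settings was chosen after seeing the data. In the authors' own ratios the difference was 0.32, and with median centring it was 0.99.

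Notch3, the receptor of mural cells, was read at chr17:32257848-32257907 (mm9, minus strand). Its log2 ratios were 2.07, 1.87, 1.49, 2.0 and 1.01 on the sham arrays and 1.74, 2.23, 1.75, 1.63 and 1.22 on the PPE arrays. The groups lay over each other, with sham 5 and PPE 5 lowest in their groups. The difference was 0.026 (SE 0.23), with an interval from -0.48 to 0.53 and a limma adjusted p of 0.946. Its sign turned in 12 of 25 alternatives, so no direction can be given.

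Notch1 and Notch2 are the broadly used receptors, found in endothelium, muscle and blood cells. Notch1 was read at chr2:26319440-26319499 (mm9, minus strand), with log2 ratios from -0.05 to 0.62 in sham and from -0.29 to 1.05 in PPE. Its PPE arrays differed by slide, with PPE 1 and PPE 2 below 0 and PPE 5 highest. Notch2, at chr3:97953914-97953973 (mm9, plus strand), ranged from 0.24 to 1.20 in sham and from 0.60 to 0.97 in PPE. The differences were 0.049 (interval -0.50 to 0.60) for Notch1 and 0.087 (interval -0.27 to 0.44) for Notch2. Each had a second probe, at chr2:26314630-26314689 and chr3:97951233-97951292, whose red signal was above background on 2 and 4 arrays and which was therefore not tested. They differed by 0.075 and -0.096.

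Of the ligands, Jag1, the ligand that joins endothelium to muscle, was read at chr2:136907433-136907492 (mm9, minus strand). Its log2 ratios were 2.49, 2.33, 2.17, 2.5 and 1.95 in sham and 2.60, 2.62, 2.73, 2.25 and 2.20 in PPE. The difference was 0.19 (SE 0.15), with an interval from -0.13 to 0.52 and a limma adjusted p of 0.366. Jag2, its relative, at chr12:114146887-114146946 (mm9, minus strand), ranged from -0.29 to 0.02 in sham and from -0.18 to 0.23 in PPE and differed by 0.16 (interval -0.10 to 0.43).

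Dll4, a ligand of arterial and sprouting endothelium, was read at chr2:119160779-119160838 (mm9, plus strand). Its log2 ratios were 0.98, 0.22, 0.23, 0.65 and 0.11 in sham and 2.07, 1.33, 0.55, 0.77 and 0.56 in PPE. The 2 arrays above 1 were PPE 1 and PPE 2, both of slide 1, and sham 1 of that slide was the highest sham array. The red signal was above background on 3 of 5 sham arrays and on all 5 PPE arrays, and the green signal on 5 arrays in all. The difference was 0.62 (SE 0.29), or 1.53-fold more, with an interval from -0.022 to 1.26, a limma adjusted p of 0.127 and an exact permutation p of 0.0873. Without PPE 1 the difference was 0.36, and with a background offset of 0 it was 1.05.

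Because slides differed, the comparison was repeated with the slide as a fixed block, in which the 3 arrays that lie alone on a slide add nothing to the difference, so that it rests on 3 sham and 4 PPE arrays. In that fit 3 of the 10 genes passed the threshold, beside 24.2% of all names. Notch4 was higher in PPE (14% of all names were), with a difference of 0.71 (SE 0.12, limma adjusted p = 0.00342, range over alternatives to 0.395). Hey2 and Heyl were lower (10.3% of all names were), with differences of -1.63 (SE 0.12, limma adjusted p = 0.00013) and -0.89 (SE 0.15, limma adjusted p = 0.00323, range over alternatives to 0.812). Dll4 differed by 0.55 with an interval from 0.11 to 0.99 and a limma adjusted p of 0.0535 (range over alternatives from 0.0264 to 0.436). The other 6 lay between -0.044 and 0.19. The standard errors of the 3 genes were 0.12 to 0.15, beside 0.33 to 0.44 without the block. PPE 5 and sham 5, each the lowest array of its group for all 3 genes, have no weight in this fit.

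Within slide 1 the differences were -1.53 for Hey2, -0.79 for Heyl, 0.50 for Notch4 and 0.72 for Dll4. Within slide 2 they were -1.7, -0.97, 0.85 and 0.43 for the same genes in that order. In these 4 of the 10 genes the groups did not overlap within slide 1 nor within slide 2, in the same direction. With so few arrays this was seen in 54.3% of all names, so it says little of these genes. Notch1 (-0.33 and 0.17), Notch2 (0.19 and -0.070), Notch3 (-0.089 and 0.012) and Jag2 (-0.068 and 0.090) had opposite signs on the 2 slides.

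**Figure D2:**
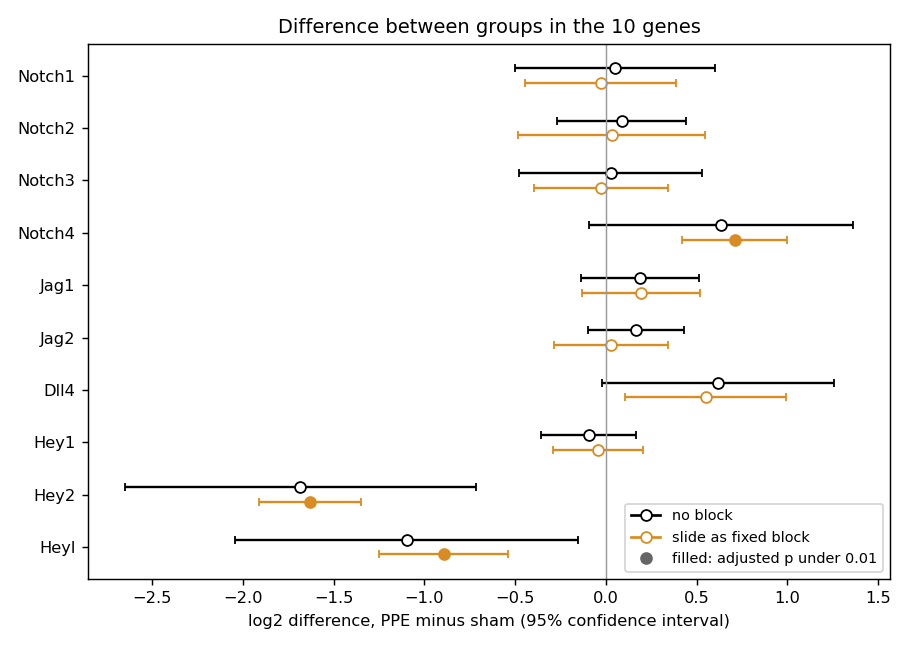
Log2 difference, PPE minus sham (x axis), of each gene with its 95% confidence interval, without a block (black, 10 arrays) and with slide as a fixed block (orange, resting on the 7 arrays of slides 1 and 2). Filled points pass a limma adjusted p of 0.01: none without the block, and Hey2, Heyl and Notch4 with it.

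Each mural gene was set beside the endothelial gene of the same role, as the difference of their log2 ratios within an array, which removes what moves both probes on that array alike. The 2 genes of a pair are read by different probes, so a value within an array has no meaning as a level and only its difference between groups is read. Notch3 minus Notch4 was -0.41, 0.10, -0.25, 0.16 and -0.33 in sham and -1.35, -0.64, -0.80, -1.03 and 0.04 in PPE. Apart from PPE 5, all PPE arrays lay below all sham arrays. The difference was -0.61, with an exact two-sided permutation p of 0.0476 and 0.0833 after Benjamini-Hochberg adjustment over the 3 pairs. With median centring the difference was -0.33. The smallest p that the 252 relabellings of the arrays allow is 0.00794.

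Heyl minus Hey1 was 4.70, 4.14, 3.90, 4.8 and 3.68 in sham and 3.73, 4.21, 3.16, 3.01 and 2.09 in PPE. It differed by -1.003, with an exact permutation p of 0.0556 and 0.0833 after adjustment. Without PPE 5 it was -0.72, with a background offset of 0 -0.50 and in the authors' own ratios -0.25. Jag1 minus Dll4 was 1.51, 2.12, 1.94, 1.85 and 1.84 in sham and 0.53, 1.29, 2.18, 1.49 and 1.63 in PPE. It differed by -0.43, with an exact permutation p of 0.182, also after adjustment. Without PPE 1 it was -0.20, with a background offset of 0 or in the authors' own ratios -0.89 and -0.88, and with median centring 0.27. None of the 3 pairs passed 0.05 after adjustment. With slide as a fixed block, the receptor pair differed by -0.74 (limma adjusted p over the pairs = 0.0099), the target pair by -0.85 (limma adjusted p = 0.00196) and the ligand pair by -0.36 (limma adjusted p = 0.180). Over the alternatives the adjusted p ranged from 0.00196 to 0.298 for the receptors and from 0.00196 to 0.460 for the targets. For the ligands it ranged from 0.0488 to 0.548. These ranges mix limma, used with a block or array weights, and exact permutation, used otherwise, so they do not show the effect of a setting alone. Within slides 1 and 2 the receptor pair differed by -0.59 and -0.84, the target pair by -0.72 and -0.93 and the ligand pair by -0.60 and -0.20.

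**Figure D3:**
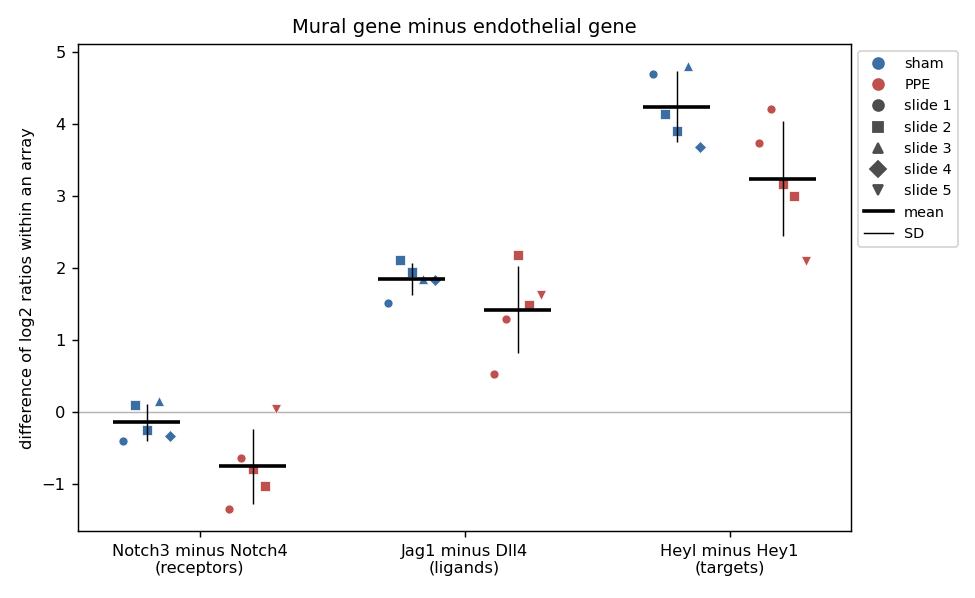
Difference within each array between the log2 ratio of the mural gene and that of the endothelial gene (y axis) for receptors, ligands and targets (x axis), on 5 sham (blue) and 5 PPE (red) arrays, with the mean as a thick bar and the SD as a thin line. The PPE mean lies below the sham mean in all 3 pairs, by a difference of -0.61, -0.43 and -1.003, and the groups overlap in each. The genes themselves differed by 0.026 (Notch3) and 0.64 (Notch4), by 0.19 (Jag1) and 0.62 (Dll4), and by -1.10 (Heyl) and -0.094 (Hey1). Jag1 is set here as the mural gene, though endothelium carries it too. Dll4 is set as the endothelial gene, and which cells of the wall gave its signal was not tested.

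Of 50 other genes of the pathway, 48 were found on the array and 47 were tested. Of these 9 were higher and 2 lower in PPE, 23.4% in all, close to the 23.8% of all names. The count lower was 4 without sham 3 or PPE 5, and 1 without sham 1, sham 4 or PPE 3. With median centring 0 were higher and 0 lower, so that none of the calls of these pathway genes named below was made under it. Their median difference was 0.043, beside 0.021 over all names. The share called was 4 of 9 among the proteases that cut Notch, 3 of 12 among ubiquitin ligases and endocytic adaptors, 2 of 12 in the nuclear complex with its co-repressors, 1 of 5 among sugar transferases, 1 of 4 among other ligands and 0 of 5 among other targets.

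Among the sugar transferases, Lfng (Lunatic fringe), which lengthens the sugars on Notch and so alters which ligands activate it, had the largest change. Its log2 ratios ran from -0.19 to 0.36 in sham and from 1.61 to 2.43 in PPE, with no overlap. It rose by 1.93 (SE 0.16, limma adjusted p = 5.44e-06). Its relatives Mfng and Rfng differed by 0.0080 (interval -0.36 to 0.38) and -0.48 (interval -0.84 to -0.12), with limma adjusted p-values of 0.976 and 0.0401. Pofut1, which adds the first fucose, differed by -0.30, and Poglut1, which adds glucose, by 0.043, and neither passed.

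Of the proteases, Adam10, which makes the cut after ligand binding, rose by 1.19 (SE 0.14, limma adjusted p = 4.7e-05). Furin, which cuts the receptor on its way to the surface, rose by 0.76, and Psen2, a catalytic subunit of gamma-secretase, rose by 0.63. Aph1b, a scaffold subunit of the same enzyme, fell by 1.15, from a range of 0.97 to 1.69 in sham to one of -0.04 to 0.57 in PPE. Mouse Aph1c, which is nearly identical to Aph1b, was not matched to a name of its own, so the Aph1b value may hold both. With the slide block Furin did not pass, and the other 3 did.

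Of the ubiquitin ligases, Dtx3l rose by 2.01 and Dtx4 by 1.44, and the groups overlapped in neither. Dtx3l acts with a partner in interferon responses and DNA repair as well. Itch, which marks Notch for breakdown, rose by 0.53, but did not pass with the slide block. Dner, a Notch-like ligand known from neurons, fell by 1.20, from 1.44 to 2.77 in sham to 0.80 to 1.70 in PPE.

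In the nucleus, Rbpj itself differed by 0.16 (interval -0.21 to 0.53, limma adjusted p = 0.520). Of the Mastermind co-activators, Maml1 rose by 0.41 and Maml3 by 0.66, while Maml2 differed by -0.68 with a limma adjusted p of 0.0457. With the slide block, Maml2 passed and Maml1 did not. The co-repressors Tle1 (-0.88), Tle2 (-0.49), Tle3 (0.54) and Tle4 (0.48) did not pass, nor did Spen (0.043), Cir1 (0.014) and Snw1 (0.013).

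None of the 5 genes listed as other targets passed the threshold, and whether each of them answers to Notch in the aorta was not tested. Hes1, the most widely used Notch target, differed by -0.25 (interval -0.61 to 0.12). Hes5 differed by -0.18, Hes6 by 0.29 and Hes7 by -0.018. Nrarp, a target that feeds back on Notch, differed by 0.50 (interval -0.050 to 1.05). Among the 8 genes listed here as targets, Hes and Hey together with Nrarp, the differences thus ran from -1.68 for Hey2 to 0.50 for Nrarp. The promoter windows of Hey2, Hes5 and Lfng printed above all hold GTGGGAA, and the 3 genes had differences of -1.68, -0.18 and 1.93. The window of Hes7, not printed, held it too, at -180 on the opposite strand, and Hes7 differed by -0.018. The windows of Hes6 and Nrarp held no GTGGGAA, and Hes1 had no window to search. Apart from the 10 members, only these other targets and Lfng were looked up, so the remaining pathway genes are not covered.

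**Figure D4:**
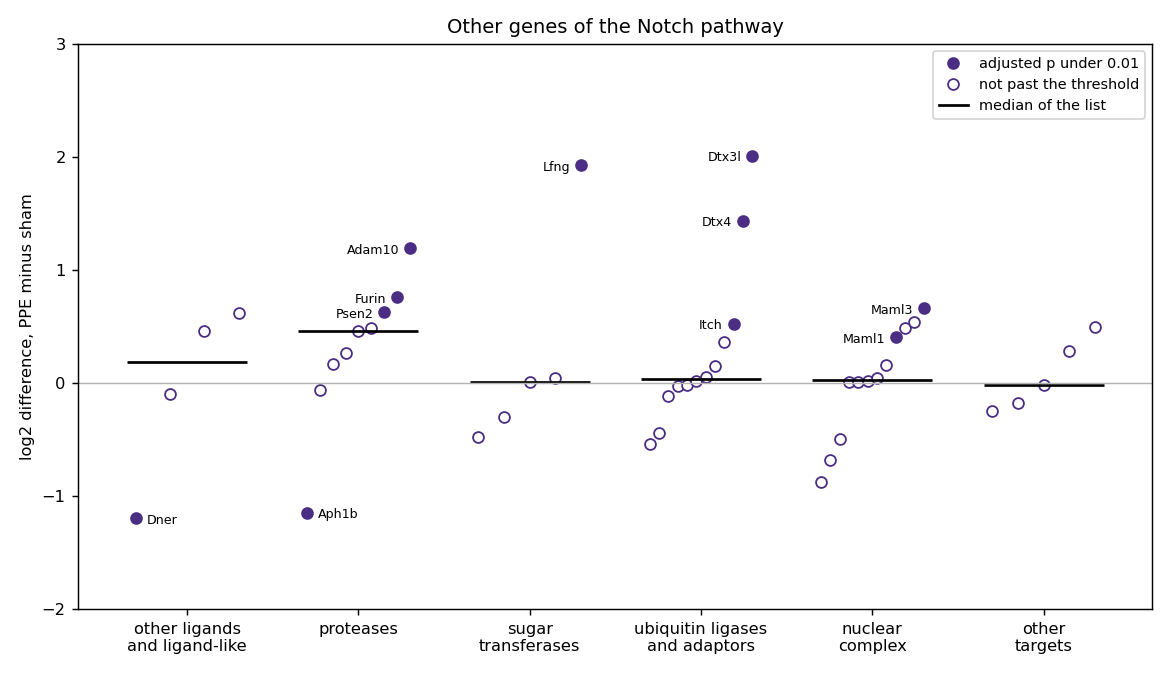
Log2 difference, PPE minus sham (y axis), of 47 other genes of the Notch pathway in 6 lists (x axis); filled and named points pass a limma adjusted p of 0.01, and the bar is the median of the list. Lfng and Dtx3l stand highest, Dner and Aph1b lowest, and none of the 5 other targets is filled.

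Markers of the cells that carry these genes were read on the same arrays. Over all names, 13.9% were called higher and 9.96% lower, the shares to set beside each count of markers. With median centring only 8 of all names were called lower, fewer than the 10 smooth muscle genes named next. Smooth muscle contractile genes fell in 10 of 12 cases, with a median difference of -1.85, among them Acta2 (-2.48), Tagln (-2.95) and Myocd (-2.66), while Myh11 differed by -0.74 and did not pass. Their mean log2 ratio ran from 3.30 to 4.47 in sham and from 1.67 to 2.81 in PPE, without overlap. Of 6 pericyte markers, 1 fell, Cspg4 (-2.22), with a median of -0.31 over the list, and Pdgfrb differed by 0.65. In bulk tissue, fewer cells of a type and less RNA of a gene per cell cannot be told apart. Notch3, of the same mural cells, differed by 0.026.

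None of 14 endothelial markers passed, with a median of 0.15, and their mean log2 ratio ran from 2.46 to 3.49 in sham and from 2.60 to 3.66 in PPE. Pecam1 differed by -0.36 and Cdh5 by 1.17 (limma adjusted p = 0.0167). In the slide block 2 of the 14 passed as higher, Cdh5 and Emcn (1.20 without the block), and 0 as lower. Over all names, 14% passed as higher and 10.3% as lower in that fit. Of 6 arterial endothelial markers 1 rose, Cxcr4 (2.51), a receptor that leukocytes carry too, while Gja5 differed by 0.45 and Efnb2 by -0.61. Macrophage markers rose in 8 of 10 cases, with a median of 2.10 and a mean log2 ratio from 0.79 to 1.19 in sham and from 2.51 to 3.56 in PPE. Of the lymphocyte list 3 of 10 rose (median 0.85), of the fibroblast list 4 of 8 (median 0.88) and of the Schwann cell list 1 of 6 (median 0.45). Adipocyte markers fell in 2 of 7 cases (median -0.76), both of brown fat, Ucp1 (-2.94) and Cidea (-2.40). With the slide block neither of these passed, and Plin1 and Fabp4 did. Skeletal muscle markers fell in 1 of 5 cases tested (median -0.33). The block also added Mcam to the lower pericyte genes and Cd8a to the higher lymphocyte genes. All 12 smooth muscle and all 14 endothelial markers were bright enough to be tested. The part of these cells in the values of the Notch genes was not tested.

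**Figure D5:**
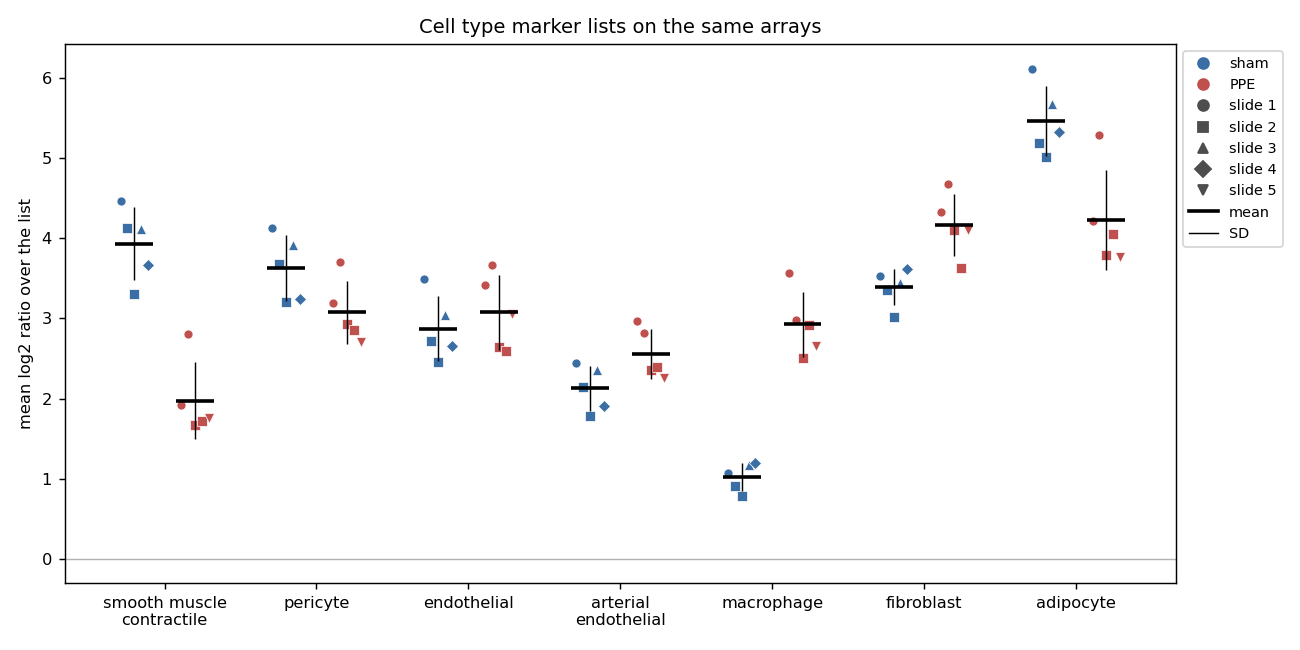
Mean log2 ratio over 7 cell type marker lists (y axis) on the 5 sham (blue) and 5 PPE (red) arrays, with the mean as a thick bar and the SD as a thin line. Smooth muscle values lie lower and macrophage values higher in PPE without overlap, while endothelial values overlap.

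The genes whose pattern over the 10 arrays was most like that of Notch3 were sought among 14257 tested RefSeq symbols, by the root-mean-square difference of log2 ratios after each gene's sham mean was subtracted. For Notch3 they were Cpsf7 (0.147), a factor of messenger RNA 3′ end processing, Podxl (0.156), a surface protein of endothelium and podocytes, and Gm13271 (0.159), a predicted gene. Their own differences were 0.029, -0.0038 and 0.010. For Dll4 they were Lrrc4 (0.13), Snx22 (0.144) and Clic6 (0.159), with differences of 0.74, 0.65 and 0.54, none past the threshold. These distances describe likeness on 10 arrays that share slides and a reference.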

How the data were processed

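Aortic RNA of 5 sham and 5 PPE mice was hybridized by the authors to 2-colour whole mouse genome arrays (62976 spots, 59305 of them not controls) with no dye swap. The authors extracted the images with Agilent Feature Extraction 10.7.3.1, with probe positions on mm9 per the file headers. The authors deposited, for each spot, linear intensity values of both dyes with their local backgrounds, and a LogRatio, which is the log10 of red divided by green. The authors' series matrix holds log2 values that equalled log2 of processed red over green on 100% of spots, within 1e-04. Per the methods, the authors excluded arrays of poor hybridization, and outliers seen by clustering, from their analysis, without saying which.

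Groups and replicate numbers were read from the sample titles. In R 4.3.3 with limma 3.58.1, mean signals were corrected by normexp with an offset of 50, which draws dim ratios towards 0, and each array was normalized by loess, which takes the typical probe of an array as unchanged. Between 176 and 331 outlier spots per array were left out, and no spot was saturated. Probes entered the test when red was called well above background on 5 or more arrays. A gene name was represented by its brightest tested probe. Groups were compared across all 22520 names by two-sided, unpaired limma tests (lmFit and eBayes) with Benjamini-Hochberg adjustment and the 1% threshold of the study. Its own test, SAM, was not run here. Pairs of genes were compared by exact permutation tests, or by limma where a block or array weights were used. The fit was tested on simulated data.

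The members and gene lists were chosen with earlier results of these data known. The text names the 10 members, pathway genes past the threshold, all genes of the lists of other targets, nuclear complex and sugar transferases, at most 4 markers per cell type, and the 3 genes nearest to Notch3 and to Dll4. One gene that met this rule is not reported here. Poglut1 was read under its older name Ktelc1. RefSeq names and promoter windows are of GRCm38.p6, and no exon annotation of mm9 was used. Alternatives were other background corrections and normalizations, the authors' ratios, other filters, the mean of a gene's probes, slide, scan day or replicate number as a block, array weights and leaving out each array.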

Additional observations from a re-analysis of the deposited data

Results flagged for a closer look

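Dixon's ratio for 5 values was computed within each group for the 10 genes, the 3 pairs, the marker lists and the share of red spots above background. It passed 0.71 in 3 of 48 groups of values, and chance alone flags about 5%. Notch4 had a log2 ratio of 1.18 on PPE 5, far below the next PPE array at 2.55. The mean log2 ratio of the smooth muscle contractile list was 2.81 on PPE 2, above the next PPE array at 1.92. That of the lymphocyte list was 0.40 on sham 3, above the next sham array at -0.54. None of the Hey genes had an array that stood apart by this measure.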

How the results depend on the processing

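All 25 alternatives kept the direction of Hey2 (-1.93 to -1.10), Heyl (-1.36 to -0.33) and Notch4 (0.32 to 0.99). Dll4 (0.36 to 1.05) and Jag2 kept theirs in 24, as they were not tested under a filter on all 10 arrays. Some settings left the differences as they were. Quantile normalization of brightness, the other filters, the mean of probes and the replicate block returned those of the main fit. The authors' LogRatio and series matrix gave the same differences as each other. The alternatives are thus fewer separate checks than their number. Hey2 passed the threshold in 10 of the 25, Notch4 in 3, Heyl in 2 and the other 7 genes in none. The count of the 10 genes called higher was 1 with slide as a fixed block and without sham 5 and PPE 5 together. The count called lower was 2 with slide or scan day as a fixed block, and 1 with slide as a random block, array weights, a filter on all 10 arrays or sham 5 and PPE 5 left out together. Leaving out 1 array at a time gave 0 to 1 called higher (Notch4, without PPE 5) and 0 to 1 called lower (Hey2, without sham 5, PPE 1 or PPE 2).

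Median centring in place of loess moved the median difference of all names from 0.021 to 0.41 and left 408 higher and 8 lower names, 0 of them in the other pathway lists. Relative to that median, Hey2 lay at -1.51, Heyl at -0.74, Notch4 at 0.58 and Dll4 at 0.08. Under it Hey1 turned to 0.43 and Jag1 minus Dll4 to 0.27. The cause was not tested. In the authors' LogRatio and series matrix Notch1 was -0.15, Notch3 -0.090 and Jag1 -0.019, and 5 pathway genes were lower. That count was 5 with array weights, 4 with slide as a random block and 1 with the mean of probes, and 1 to 4 when 1 array was left out (4 without sham 3 or PPE 5, 1 without sham 1, sham 4 or PPE 3).

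Sign changes of differences near 0 were otherwise as follows. Notch1 was -0.029 with slide as a fixed block, -0.045 without sham 5 and PPE 5, and -0.14 to 0.19 with 1 array left out. Notch2 was -0.10 with array weights and -0.032 to 0.21 with 1 array left out. Notch3 was -0.013 with no background correction, -0.016 with an offset of 0, -0.028 with slide as a fixed block, -0.016 with slide as a random block, -0.067 with scan day, -0.036 with array weights, -0.020 without sham 5 and PPE 5, and -0.14 to 0.15 with 1 array left out. Of the pairs, Notch3 minus Notch4 passed an adjusted p of 0.05 with slide as a fixed (-0.74) or random block (-0.63), array weights (-0.81) and without PPE 5, with a range of -0.81 to -0.46 over arrays left out. Heyl minus Hey1 passed with slide as a fixed (-0.85) or random block (-0.99), scan day (-1.19) and array weights (-1.01), and ranged from -1.25 to -0.72 over arrays left out. Jag1 minus Dll4 ranged from -0.62 to -0.20 over arrays left out. Pairs were tested by limma with a block or array weights and by exact permutation otherwise. A pass under a block or weights therefore also involves a change of test.

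Replicate numbers did not pair the arrays, since the deviations of same-numbered arrays correlated between -0.30 and 0.52 and 1 of 5 sham arrays correlated best with its own number. With the replicate block, 1 of the 10 genes was called lower (Hey2). The pairs stayed at -0.61, -0.43 and -1.003, and by limma all passed an adjusted p of 0.05. Dim signals limit Hey2 and Dll4 most, whose reference was above background on 5 of 10 arrays.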
